A study of Homo sapiens with 6 samples.

Results

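The genes described here are 10 inhibitors of mitogen-activated protein (MAP) kinase signaling, namely the dual-specificity phosphatase genes DUSP1, DUSP2, DUSP4, DUSP5, DUSP6, DUSP10 and DUSP16 and the Sprouty family genes SPRY1, SPRY2 and SPRED1. They were taken by gene symbol, each symbol mapping to 1 Ensembl identifier on a primary chromosome, from the 63677 genes of the deposited count table. RNA-Seq was done on the human multiple myeloma cell line RPMI8226, labelled as wild type, after 6 hr with 100 nM GST-PTR1 or with 100 nM GST. HAPLN1 is a link protein of the extracellular matrix, and its PTR1 domain was joined to glutathione-S-transferase (GST) and produced in E. coli to give GST-PTR1, with GST alone as the negative control. Each treatment had 3 libraries, labelled as biological replicates of this 1 cell line, and the comparison asks which transcripts differ after exposure to the PTR1 domain. The protein level and the phosphorylation of MAP kinases were not measured in these libraries.

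MAP kinases such as ERK, JNK and p38 are switched on by phosphorylation of a threonine and a tyrosine in the activation loop, and dual-specificity phosphatases remove both phosphates. Many of these phosphatase genes are themselves induced by the kinases or by inflammatory transcription factors, which makes them negative feedback regulators. DUSP1, DUSP2, DUSP4 and DUSP5 encode inducible nuclear enzymes, DUSP6 encodes a cytoplasmic enzyme selective for ERK, and DUSP10 and DUSP16 encode enzymes that act mainly on JNK and p38. Sprouty and SPRED proteins act further upstream, where they restrain signaling from receptor tyrosine kinases through RAS and RAF to ERK. In myeloma, RAS and RAF mutations are common and the ERK pathway is a known growth pathway.

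The 3 GST libraries had totals of 15202503, 20077280 and 23453473 counts, those of the 3 GST-PTR1 libraries were 22874133, 28837431 and 44688737, and libraries are called the shallowest, middle and deepest library of their treatment. RPKM, the read count scaled by exon length and by the total of the library, was calculated on these totals and is the scale used to compare genes with each other. Fold changes are on totals adjusted by edgeR's TMM factors. Changing from TMM factors to library totals moved the median of the log2 fold changes of the 16926 tested genes by -0.20, so log2 fold changes are to be read relative to that choice of scale. All 8 plasma cell markers examined exceeded 1 CPM with both treatments, and their summed level was 2054 to 2674 CPM in GST libraries and 1852 to 2149 CPM in GST-PTR1 libraries. Within this sum the markers moved in both directions, since edgeR called 3 of the 8 lower, namely SDC1 (log2 fold change -1.03), TNFRSF17 (-1.41) and XBP1 (-0.47), and 3 higher, namely IRF4 (0.65), PRDM1 (1.35) and SLAMF7 (1.52). Their part in the results for the 10 genes was not tested. The 4 T cell markers summed to at most 0.132 CPM, the 4 monocyte markers to at most 1.64 CPM and the 4 stromal markers to at most 0.554 CPM in any library. Of 3 epithelial markers, EPCAM exceeded 1 CPM, at a mean of 76.0 CPM with GST and 60.8 CPM with GST-PTR1.

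Of the 10 genes, 9 passed the expression filter and SPRY2 did not. DUSP2, DUSP5 and DUSP10 rose and DUSP4 and DUSP6 fell with GST-PTR1 by edgeR's quasi-likelihood test with a threshold of 0.05 on the adjusted p, and DUSP1, DUSP16, SPRY1 and SPRED1 did not pass. Over all genes tested, 9.15% were higher and 11.4% were lower by the same rule, which was 1549 and 1937 genes, and with library totals it was 927 and 3788. DUSP2, DUSP5, DUSP4 and DUSP6 changed at least 2-fold, which 3.68% of all genes tested did upward and 3.85% downward. For 6 of the 10 genes the RPKM ranges of GST and GST-PTR1 were apart, against 43.1% of all genes tested. Since these are bulk libraries, a change in the fraction of cells that express a gene and a change in RNA per cell cannot be told apart.

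**Figure D1:**
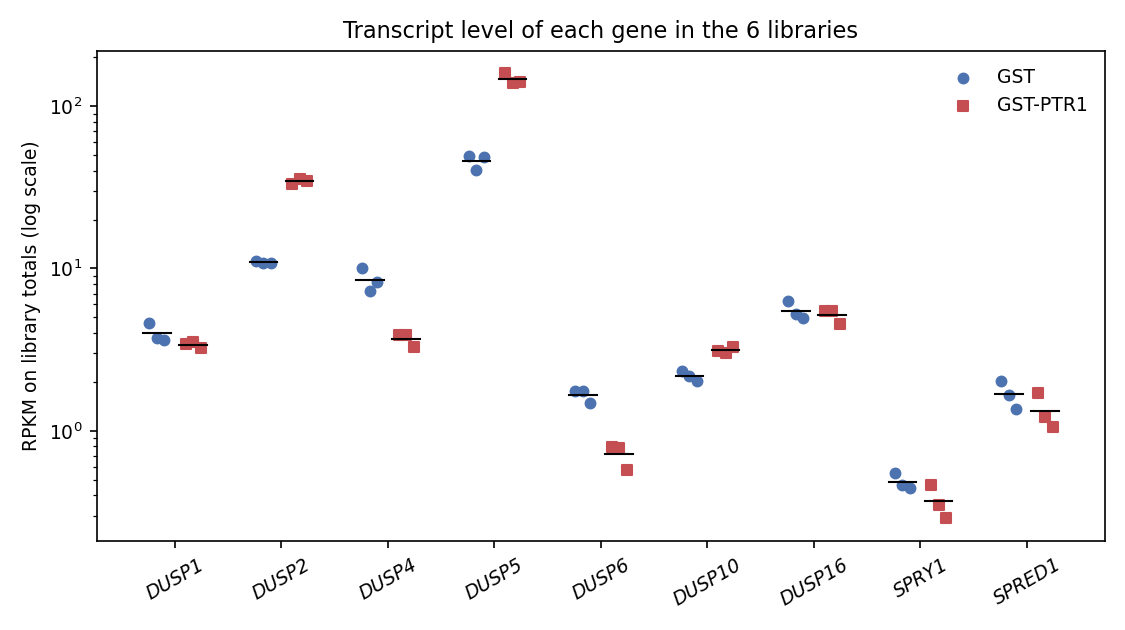
RPKM on library totals (log axis) of 9 genes, with 1 point per library in order of depth from left to right, circles for GST and squares for GST-PTR1, and a line at the mean of 3 libraries. The treatments are widely apart for DUSP2, DUSP5, DUSP4 and DUSP6, and overlap for DUSP16, SPRY1 and SPRED1. SPRY2 had 0 counts in all 6 libraries and is not drawn.

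The promoter sequences of DUSP1, DUSP2 and DUSP6 are given because they stand for the 3 outcomes, a gene that did not pass the test, 1 that rose and 1 that fell. Each is the RefSeq window on GRCh38.p14 from 250 bases before to 50 bases after the annotated start, read 5′ to 3′ on the strand of the gene. Capitals mark matches to the motifs searched, on both strands. The motifs were the cyclic AMP response element TGACGTCA, the AP-1 site TGANTCA, the STAT site TTCNNNGAA, the ETS site CCGGAAGT, the E-box CACGTG, and the NF-κB and CArG consensus sequences.
DUSP1 (chr5:172771146-172771445, minus strand): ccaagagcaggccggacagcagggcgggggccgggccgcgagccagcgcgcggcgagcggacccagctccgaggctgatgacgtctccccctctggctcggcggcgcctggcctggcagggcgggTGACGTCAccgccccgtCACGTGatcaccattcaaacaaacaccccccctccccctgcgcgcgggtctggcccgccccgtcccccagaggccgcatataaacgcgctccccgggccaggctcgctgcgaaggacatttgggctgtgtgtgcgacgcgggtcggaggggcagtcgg
DUSP2 (chr2:96145391-96145690, minus strand): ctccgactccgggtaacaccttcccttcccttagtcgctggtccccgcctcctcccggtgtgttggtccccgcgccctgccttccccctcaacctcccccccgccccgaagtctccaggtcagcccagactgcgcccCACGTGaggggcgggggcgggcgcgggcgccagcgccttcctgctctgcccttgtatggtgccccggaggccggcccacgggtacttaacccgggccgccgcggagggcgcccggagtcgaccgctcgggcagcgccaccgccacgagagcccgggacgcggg
DUSP6 (chr12:89352452-89352751, minus strand): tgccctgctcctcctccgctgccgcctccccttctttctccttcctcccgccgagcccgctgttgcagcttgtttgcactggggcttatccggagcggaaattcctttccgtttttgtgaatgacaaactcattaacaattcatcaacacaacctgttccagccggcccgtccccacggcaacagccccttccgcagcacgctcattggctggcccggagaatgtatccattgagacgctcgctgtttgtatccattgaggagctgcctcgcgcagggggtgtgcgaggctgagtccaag

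The DUSP1 window held a cyclic AMP response element at position -125 and an E-box at -108 from the start. The DUSP2 window held an E-box at -113, and the DUSP6 window held none of the motifs. The table had 12 windows for 8 of the 10 genes, DUSP4 and DUSP5 having none. The only other match was a STAT site in 1 of the 2 SPRY1 windows, at -188. Among 35116 windows of the same length, 1.85% held the cyclic AMP response element, 7.26% the E-box and 7.66% the STAT site. The NF-κB consensus was in 11.3%, the AP-1 site in 7.71%, the ETS site in 4.14% and the CArG consensus in 1.29%, and none of the 12 windows held any of these letters. A match is not a binding site, and the absence of a match applies to these 300 bases alone.

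DUSP5 and DUSP2 were the most abundant genes of the group with either treatment, and both rose with a log2 fold change of 1.86. DUSP5 (ENSG00000138166, chromosome 10 of GRCh37 from 112257596 to 112271302) encodes a nuclear phosphatase selective for ERK. It was at 49.6, 40.6 and 48.4 RPKM in the GST libraries, from the shallowest to the deepest, and at 160.0, 139.7 and 141 RPKM in the GST-PTR1 libraries. The lowest of the GST-PTR1 values lay far above the highest of the GST values. The mean rose from 46.2 ± 4.84 to 147 ± 11.4 RPKM (SD, n = 3 each), with a log2 fold change of 1.86 (standard error 0.11, edgeR adjusted p = 7.30e-07). This log2 fold change, on TMM-adjusted totals and not on the RPKM scale, was a 3.64-fold increase. Its 95% interval was from 1.62 to 2.11 in log2 units.

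DUSP2 (ENSG00000158050, chromosome 2 from 96808905 to 96811179), also known as PAC-1 from its induction in activated lymphocytes, was at 11.1, 10.8 and 10.8 RPKM in the GST libraries. In the GST-PTR1 libraries it was at 33.0, 35.7 and 34.7 RPKM. On library totals, its coefficient of variation was 1.6% with GST and 3.97% with GST-PTR1. The log2 fold change was 1.86 (standard error 0.11, edgeR adjusted p = 5.67e-07), or 3.63-fold. Its interval was from 1.62 to 2.10 in log2 units. By p-value DUSP2 stood at position 87 and DUSP5 at position 103 of the 16926 genes tested.

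DUSP10 (ENSG00000143507, chromosome 1 from 221874766 to 221915518) encodes MKP5, which acts on JNK and p38. It rose less. Its RPKM was 2.35, 2.16 and 2.01 with GST and 3.11, 2.99 and 3.27 with GST-PTR1, without overlap, from between 124 and 507 counts. The log2 fold change was 0.73 (standard error 0.14, edgeR adjusted p = 0.00389), an increase of 1.66-fold. Its interval was 0.42 to 1.03 in log2 units.

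DUSP4 and DUSP6 fell by close to 2-fold on TMM-adjusted totals. DUSP4 (ENSG00000120875, chromosome 8 from 29190581 to 29208185) encodes the nuclear phosphatase MKP2. It was at 10.0, 7.26 and 8.24 RPKM in the GST libraries and at 3.89, 3.90 and 3.28 RPKM in the GST-PTR1 libraries, so that the highest GST-PTR1 library was below the lowest GST library. Its log2 fold change was -1.01 (standard error 0.12, edgeR adjusted p = 0.000214), with an interval from -1.28 to -0.73.

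DUSP6 (ENSG00000139318, chromosome 12 from 89741009 to 89747048) encodes MKP3, the cytoplasmic phosphatase that binds and inactivates ERK. The GST libraries held 1.75, 1.76 and 1.48 RPKM and the GST-PTR1 libraries 0.793, 0.779 and 0.575 RPKM. The treatments did not overlap, although the gene was low, with between 84 and 164 counts per library. The log2 fold change was -1.03 (standard error 0.17, edgeR adjusted p = 0.00166), with an interval from -1.41 to -0.66. Of DUSP4 and DUSP6, the number at least 2-fold lower varied between 0 and 2 when 1 library was left out, being 0 without the deepest GST-PTR1 library, while both stayed called in all 15 alternatives.

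DUSP1 and DUSP16 did not pass the test. DUSP1 (ENSG00000120129, chromosome 5 from 172195093 to 172198198) encodes MKP1, the stress-inducible phosphatase for p38, JNK and ERK. It was at 4.63, 3.73 and 3.63 RPKM in the GST libraries and at 3.42, 3.54 and 3.24 RPKM in the GST-PTR1 libraries. On library totals all GST-PTR1 values were thus lower, while on TMM-scaled totals the treatments overlapped. The log2 fold change was -0.03 (edgeR adjusted p = 0.907), and its interval reached from -0.35 to 0.29. The sign was positive in 5 of the 15 alternatives, and none called the gene.

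DUSP16 (ENSG00000111266, chromosome 12 from 12628829 to 12715317) encodes MKP7, a JNK and p38 phosphatase. Its RPKM was 6.32, 5.27 and 4.92 with GST and 5.47, 5.50 and 4.54 with GST-PTR1, and the treatments overlapped. The log2 fold change was 0.11 (edgeR adjusted p = 0.566) with an interval from -0.16 to 0.38, and it became -0.09 with library totals. A change of 1.5-fold lies outside the interval of either gene.

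**Figure D2:**
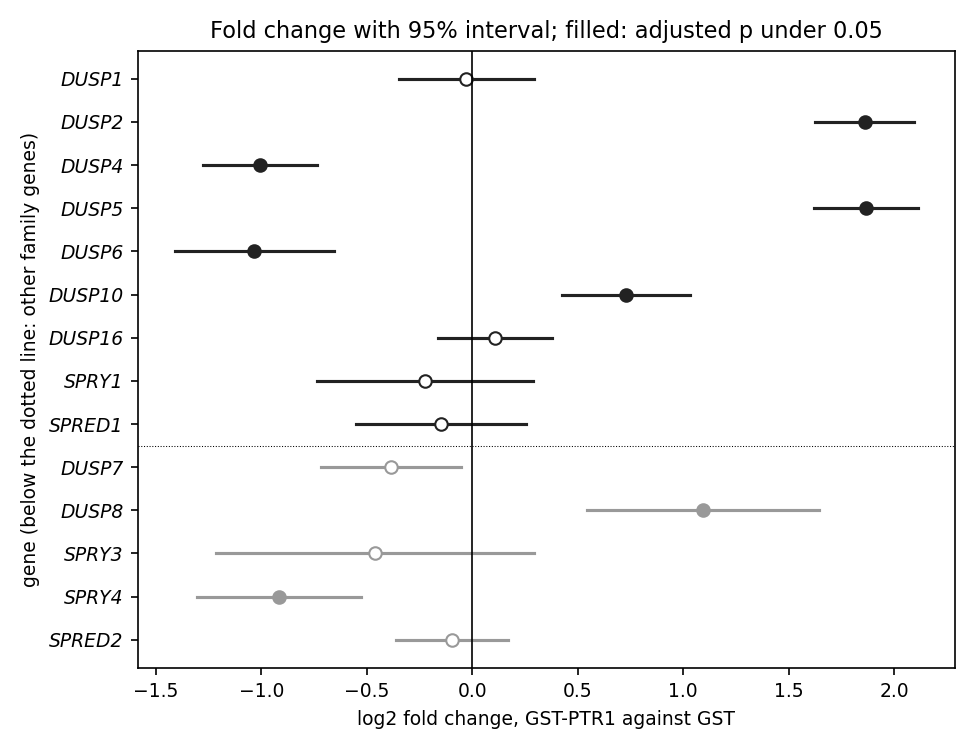
Log2 fold change of GST-PTR1 against GST (horizontal axis) with its 95% interval for the 9 genes tested and, below the dotted line, 5 other family genes. Filled points had an adjusted p under 0.05. DUSP2 and DUSP5 lie together at 1.86, DUSP4 and DUSP6 at -1.01 and -1.03, and SPRY4 is the Sprouty gene that fell.

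The Sprouty group was low throughout. SPRED1 (ENSG00000166068, chromosome 15 from 38544527 to 38649450), which recruits the RAS GTPase-activating protein neurofibromin to the membrane, was at 2.01, 1.66 and 1.35 RPKM in the GST libraries and at 1.71, 1.22 and 1.05 RPKM in the GST-PTR1 libraries. The treatments overlapped, and with either treatment the shallowest library was the highest and the deepest the lowest. The part of depth in these values was not tested beyond thinning of all libraries to the smallest total, which did not change the call. The log2 fold change of SPRED1 was -0.15 (edgeR adjusted p = 0.596) with an interval from -0.55 to 0.26.

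SPRY1 (ENSG00000164056, chromosome 4 from 124317950 to 124324910) had 33, 37 and 41 counts with GST and 42, 40 and 51 with GST-PTR1. That gave 0.548, 0.466 and 0.442 RPKM against 0.464, 0.350 and 0.288 RPKM, again with overlap and in the same order of depth. Its log2 fold change was -0.22 (edgeR adjusted p = 0.521), and the interval from -0.73 to 0.29 includes changes of 1.5-fold downward.

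SPRY2 (ENSG00000136158, chromosome 13 from 80910111 to 80915086) had 0 counts in all 6 libraries. A count of 0 allows up to 3 counts, which correspond to 0.060 RPKM in the shallowest GST library and to 0.0204 RPKM in the deepest GST-PTR1 library, counting error only. Expression of SPRY2 below these levels would not have been seen, and no fold can be given. None of the 10 genes shares exon bases with another annotated gene on either strand.

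The order of the levels differed between the treatments. With GST the order was DUSP5, DUSP2, DUSP4, DUSP16, DUSP1, DUSP10, SPRED1, DUSP6, SPRY1 and SPRY2. The libraries of neighbors in this order did not overlap, except for DUSP10 and SPRED1 and for SPRED1 and DUSP6. With GST-PTR1, DUSP16 stood above DUSP4, and DUSP4, DUSP1 and DUSP10 lay at 3.69 ± 0.358, 3.40 ± 0.152 and 3.12 ± 0.136 RPKM (SD, n = 3 each). Neighbors among these 3 genes overlapped, and all other neighbors were apart.

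Summed over the 7 phosphatase genes, the libraries held 85.7, 71.6 and 79.4 RPKM with GST and 209.6, 192 and 190.4 RPKM with GST-PTR1. The sum was 2.50 times as high with GST-PTR1 on library totals and 2.87 times as high on TMM-scaled totals, and DUSP5 supplied most of it. DUSP5 made up 58.5% ± 2.14 of the sum with GST and 74.3% ± 1.83 with GST-PTR1 (SD, n = 3 each), and DUSP2 made up 13.9% ± 1.09 and 17.5% ± 1.55. DUSP4 made up 10.7% ± 0.821 with GST and 1.87% ± 0.156 with GST-PTR1. DUSP6 held 2.12% ± 0.307 with GST and 0.362% ± 0.0536 with GST-PTR1. A share also falls for a gene that rose less than the sum, as DUSP10 did, from 2.77% to 1.59%. The shares of DUSP1 and DUSP16, which did not pass the test, went from 5.06% to 1.72% and from 6.97% to 2.62%. Without DUSP5, the sum of the other 6 genes was 32.7 ± 2.95 RPKM with GST and 50.5 ± 1.59 RPKM with GST-PTR1. The 2 genes for JNK and p38 phosphatases together were at 7.68 ± 0.893 and 8.29 ± 0.425 RPKM, whose libraries overlapped on library totals. On TMM-scaled totals they did not overlap, at 6.52 to 7.91 RPKM with GST and 8.80 to 8.97 with GST-PTR1. These sums are descriptions of transcript level and were not tested.

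**Figure D3:**
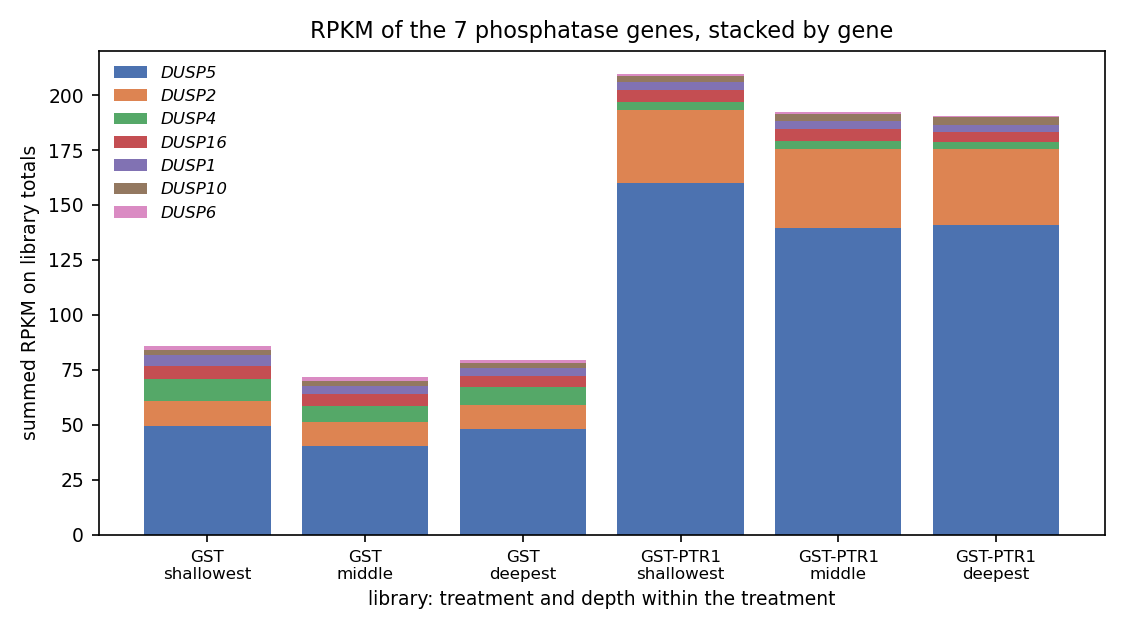
Summed RPKM on library totals (vertical axis) of the 7 phosphatase genes in each of the 6 libraries, stacked by gene. The GST libraries reach 71.6 to 85.7 RPKM and the GST-PTR1 libraries 190.4 to 209.6 RPKM, most of it DUSP5 and DUSP2, while the segment of DUSP4 shrinks.

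DUSP5 had the largest log2 fold change of the group by a margin far below its standard error, and DUSP2 had the larger one in 5 of 15 alternatives. The 3 genes whose log2 CPM followed that of DUSP5 most closely over the 6 libraries were ZC3H12A (Pearson's r = 0.9992), RELB (r = 0.9990) and RND1 (r = 0.9987), among 13360 genes with a mean count of at least 50. ZC3H12A encodes the ribonuclease regnase-1 and RELB a subunit of NF-κB. Their log2 fold changes were 2.81, 2.28 and 2.57, larger than that of DUSP5. With 6 libraries in 2 treatments, any gene with a uniform increase gives a high r, so this is a description.

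Other genes of the same families moved in both directions. DUSP8, another JNK and p38 phosphatase gene, rose from 0.899 ± 0.333 to 1.68 ± 0.377 RPKM (SD, n = 3 each), and its log2 fold change was 1.09 (edgeR adjusted p = 0.0107). DUSP7, a cytoplasmic ERK phosphatase gene, had 5.03 ± 0.761 RPKM with GST and 3.38 ± 0.762 with GST-PTR1, a log2 fold change of -0.39 (edgeR adjusted p = 0.0951), and was called lower in 3 of 15 alternatives, with library totals among them. DUSP9 had at most 3 counts in any library. SPRY4, which blocks RAS activation, was the most abundant Sprouty gene. It had 335, 335 and 414 counts with GST and 243, 275 and 277 with GST-PTR1. The middle and deepest GST-PTR1 libraries were deeper than any GST library. SPRY4 fell from 3.17 ± 0.481 to 1.48 ± 0.389 RPKM. Its log2 fold change was -0.92 (standard error 0.18, edgeR adjusted p = 0.00419), a call kept by all 15 alternatives.

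SPRED2, a relative of SPRED1 with the same function, was at 9.87 ± 1.14 RPKM with GST and 8.09 ± 1.26 with GST-PTR1 and did not pass (log2 fold change -0.10, edgeR adjusted p = 0.602). SPRY3 was at 15 to 24 counts and had a log2 fold change of -0.46 (edgeR adjusted p = 0.359), and SPRED3 was not tested. Of 9 atypical dual-specificity phosphatases tested, which lack the kinase-binding domain, 0 passed in either direction by edgeR, DESeq2 or voom and 1 had an unadjusted edgeR p under 0.05, and their median log2 fold change was 0.07. Among tyrosine phosphatases that bind MAP kinases, PTPN7 was at 33.1 ± 4.85 and 30.3 ± 4.07 RPKM without passing, and PTPN5 was not tested. PTPRR had 2 to 6 counts with GST and 16 to 27 with GST-PTR1, and so entered the test through the treatment in which it was high. Its call (edgeR adjusted p = 0.0142) was lost without the middle or the deepest GST library, and the gene was not tested with the filter of 10 counts in every library or with thinning.

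Around these inhibitors, the MAP kinase pathway lists held 132 matched genes, of which 114 were tested, and the test called 14 higher (12.3%) and 16 lower (14.04%), beside 9.15% and 11.4% of all genes tested. The higher genes include PTPRR and EGR2 and the lower genes MAPK4, MAP3K12 and EGR1, which entered the test through the treatment in which they were high. These shares are therefore not a result about the pathway. Of the 14 higher genes, 9 were in the list of immediate early and ternary complex factor genes. The median log2 fold change of the tested list genes was -0.10, against 0.01 over all genes tested. The split depended on the scale, since with library totals 42 of the genes were called lower. Without the deepest GST-PTR1 library 8 were called lower, and 10 without the shallowest GST or the middle GST-PTR1 library.

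Of 49 kinase genes tested in 4 lists, 4.08% were higher and 14.3% lower, beside 9.15% and 11.4% of all genes tested. Of 11 MAP kinase genes, 1 was higher and 3 were lower, the latter including MAPK4, named after its values were seen. MAPK4 had 14 to 22 counts with GST and 2 to 11 with GST-PTR1, and so entered the test through the treatment in which it was high. The 14.3% includes MAPK4 and MAP3K12, which entered in the same way. MAPK3, which encodes ERK1, fell from 17.9 ± 2.70 to 10.9 ± 0.899 RPKM (log2 fold change -0.52, edgeR adjusted p = 0.00957). MAPK13, a p38 gene, fell from 23.1 ± 1.67 to 13.2 ± 1.94 RPKM (log2 fold change -0.61, edgeR adjusted p = 0.00275). MAPK6, an atypical MAP kinase gene, had a log2 fold change of 0.44 that was called in 10 of 15 alternatives and not with library totals or without the shallowest GST, the deepest GST or the middle GST-PTR1 library, nor in the fit of 4 libraries with a block by column number. Of the 6 MAP kinase kinase genes tested, 0 passed by edgeR, DESeq2 or voom and 1 had an unadjusted edgeR p under 0.05, and their median log2 fold change was -0.06.

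Among 22 upstream MAP3 and MAP4 kinase genes, 1 rose and 2 fell, beside 9.15% and 11.4% of all genes tested. The gene that rose was MAP3K8, whose product TPL2 activates the ERK pathway downstream of inflammatory receptors. It had 193, 239 and 307 counts with GST and 1955, 2576 and 3987 with GST-PTR1, and it rose from 3.49 ± 0.168 to 24.4 ± 0.610 RPKM. Its log2 fold change was 3.01 (standard error 0.11, edgeR adjusted p = 2.29e-08), which was larger than that of any of the 10 inhibitor genes. MAP3K12 had 12 to 22 counts with GST and 2 to 9 with GST-PTR1, and so entered the test through the treatment in which it was high. It fell from 0.130 ± 0.0456 to 0.0248 ± 0.0112 RPKM (log2 fold change -2.06), and was not tested with the filter of 10 counts in every library. MAP3K3 fell with a log2 fold change of -0.57, a call that was lost in 4 of 15 alternatives. These were the fits without the shallowest GST, the deepest GST, the middle GST-PTR1 or the deepest GST-PTR1 library.

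Of the 13 RAS, RAF and adaptor genes, 2 were lower and 0 higher, beside 11.4% and 9.15% of all genes tested. DESeq2 and voom each called 2 lower and 0 higher, and 4 were lower and 0 higher at an unadjusted edgeR p under 0.05. SOS2, an activator of RAS, had a log2 fold change of -0.56 (edgeR adjusted p = 0.0349) that was called in 9 of 15 alternatives, the losses including the fits without the shallowest GST, middle GST, shallowest GST-PTR1 or deepest GST-PTR1 library. Of the 14 RAS GTPase-activating and other inhibitor genes tested, 3 were lower and 0 higher, beside the same 11.4% and 9.15%. DESeq2 called 5 lower and 0 higher, and voom called 3 lower and 0 higher. At an unadjusted edgeR p under 0.05, 7 were lower and 1 higher. RASAL1, a RAS GTPase-activating protein gene, fell from 15.4 ± 1.57 to 8.59 ± 1.19 RPKM (log2 fold change -0.65, edgeR adjusted p = 0.00197) in all 15 alternatives. The ubiquitin ligase genes CBL and CBLB, with log2 fold changes of -0.50 and -0.67, were called in 11 and 8 of the alternatives, each losing its call without the shallowest GST, middle GST, middle GST-PTR1 or deepest GST-PTR1 library, and CBLB also without the shallowest GST-PTR1 library. Among 10 MAP kinase-activated kinase genes, RPS6KA2 fell from 6.82 ± 0.815 to 3.55 ± 0.553 RPKM (log2 fold change -0.75, edgeR adjusted p = 0.00202), and RPS6KA1 had a log2 fold change of -0.48 that was called in 12 alternatives, and not without the deepest GST, middle GST-PTR1 or deepest GST-PTR1 library. Both encode RSK kinases, which ERK activates.

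**Figure D4:**
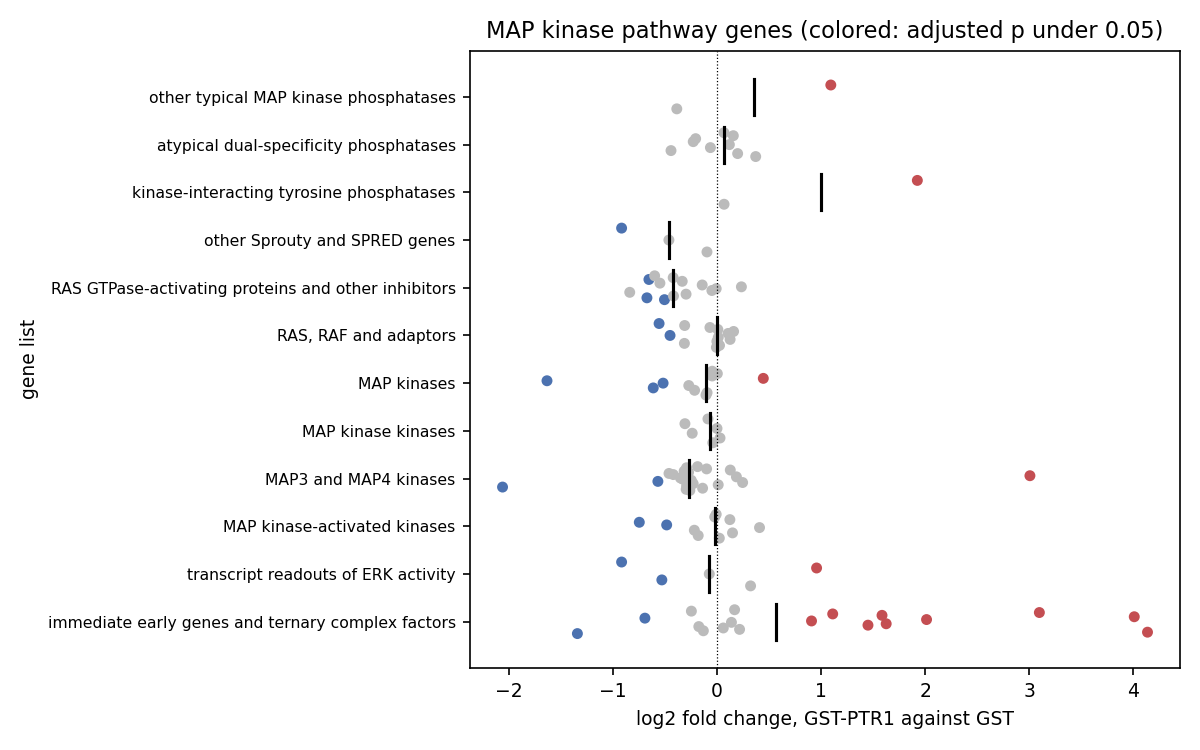
Log2 fold change of GST-PTR1 against GST (horizontal axis) of each tested gene in 12 MAP kinase pathway lists, red for higher and blue for lower at an adjusted p under 0.05 and gray for the rest, with a bar at the median of each list. MAP3K8 at 3.01 stands apart from the other kinases, and immediate early genes hold 9 of the red points.

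Transcripts that follow ERK activity were split. A published score of 10 such genes includes DUSP4, DUSP6 and SPRY2 as well as SPRY4, ETV4, ETV5, CCND1, PHLDA1, EPHA2 and EPHA4. Of its 7 tested genes, 4 were lower, namely DUSP4, DUSP6, SPRY4 and ETV4, and PHLDA1 was higher. DUSP4 and DUSP6 are among the 10 genes described above. Of the 5 other tested genes, 2 were lower and 1 was higher, beside 11.4% and 9.15% of all genes tested. ETV4, an ETS factor, had 917 to 1270 counts with GST and 840 to 1240 with GST-PTR1. The middle and deepest GST-PTR1 libraries were deeper than any GST library. The log2 fold change of ETV4 was -0.53 (edgeR adjusted p = 0.0299). This call was lost without the shallowest GST, the deepest GST, the middle GST-PTR1 or the deepest GST-PTR1 library. PHLDA1 rose from 0.348 ± 0.0248 to 0.583 ± 0.168 RPKM (log2 fold change 0.96, edgeR adjusted p = 0.0175), a call lost without the deepest GST or the middle GST-PTR1 library. CCND1, the cyclin D1 gene, had a log2 fold change of 0.32 and ETV5 of -0.07, and neither passed. EPHA2 and EPHA4 were not tested.

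Of 18 immediate early and ternary complex factor genes, 9 were higher and 2, EGR1 and IER2, were lower, beside 9.15% and 11.4% of all genes tested. The 9 include EGR2, with 0 to 1 counts with GST and 11 to 24 with GST-PTR1, which entered the test through the treatment in which it was high. JUNB, an AP-1 subunit, rose from 25.4 ± 4.11 to 189.7 ± 22.1 RPKM (log2 fold change 3.10, edgeR adjusted p = 6.56e-08). IER5 rose from 21.4 ± 1.02 to 56.1 ± 4.47 RPKM (log2 fold change 1.59), and IER3 had a log2 fold change of 4.01. FOS, EGR1, EGR2 and IER2 were chosen after their values were seen. FOS rose from 0.370 ± 0.173 to 0.955 ± 0.0249 RPKM (log2 fold change 1.63, edgeR adjusted p = 0.00204). EGR1 had 18 to 27 counts with GST and 9 to 15 with GST-PTR1, and so entered the test through the treatment in which it was high. It fell from 0.397 ± 0.149 to 0.138 ± 0.0612 RPKM (log2 fold change -1.34, edgeR adjusted p = 0.0255). It was called in 10 of 14 alternatives and was not tested with the filter of 10 counts in every library. EGR1 lost its call without the shallowest GST, the deepest GST, the middle GST-PTR1 or the deepest GST-PTR1 library.

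**Figure D5:**
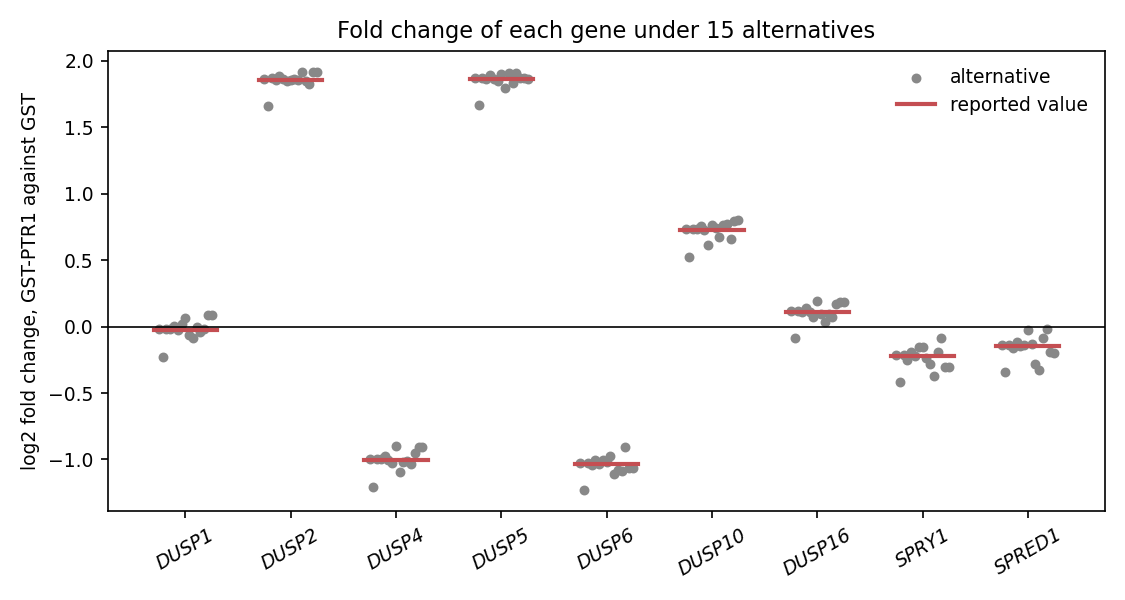
Log2 fold change of GST-PTR1 against GST (vertical axis) of the 9 genes tested, with the reported value as a red line and the values of 15 alternatives as gray points. The points of DUSP2, DUSP5 and DUSP10 stay above 0 and those of DUSP4 and DUSP6 below 0, while those of DUSP1 and DUSP16 fall on either side.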

How the data were processed

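RNA-Seq counts of 6 libraries of RPMI8226 cells were analyzed. Per the file headers, the authors made the deposited counts, which are not normalized, with featureCounts 1.5.0-p1 by summing reads over exons of Ensembl release 75 on GRCh37, counting reverse-strand reads only and leaving out reads that map to several places or genes. The aligner is not given in the sources used here. Columns were assigned to a treatment by name. The numbers in those names differ from the replicate numbers of the samples, so that libraries were named by depth. Libraries of the same treatment were compared by chi-square, which was at least 8.38 per gene for every pair, so that none was counted as a duplicate. A floor of 3 counts was worth between 0.0671 and 0.197 CPM, and floors cover counting error only.

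The quasi-likelihood test of edgeR 4.0.16 under R 4.3.3 was used with TMM factors and filterByExpr, and p-values of 16926 genes were adjusted by Benjamini-Hochberg, at an adjusted p under 0.05. Every adjusted p is from that fit. Exact permutation tests of RPKM cannot go below p = 0.1 with 3 libraries against 3, and for DUSP2, DUSP4, DUSP5, DUSP6, DUSP10 and DUSP1 they gave this smallest value. The scripts were first tested on simulated data. Alternatives were DESeq2's size factors, library totals, DESeq2 1.42.0, voom (limma 3.58.1), count filters of 1 in any or 10 in every library, thinning to the smallest total, and leaving out each library. Further fits, of the 4 libraries with a column number in common, were added after seeing the data. The 10 genes and the lists were chosen with earlier results of these data known. All 10 genes and the other typical family genes were named, with the 3 genes of smallest adjusted p of each list (under 0.05) and every gene of lists of 5 or fewer, other names being said to be chosen later, and for DUSP5, whose fitted log2 fold change was marginally the largest, the 3 genes most like it. Symbols were matched by Ensembl identifier for 52181 of 63677 genes, and DUSP14 was not matched. Promoter windows are RefSeq's on GRCh38.p14 and were not joined to GRCh37 coordinates. Protein sequences were not used here. Values of some single genes of the lists are not reported here.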

Additional observations from a re-analysis of the deposited data

How the results depend on the processing

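DUSP2, DUSP4, DUSP5, DUSP6 and DUSP10 kept their direction and call in all 15 alternatives, and DUSP1, DUSP16, SPRY1 and SPRED1 were called in none. With 1 library left out, log2 fold changes ranged from 1.83 to 1.92 for DUSP2, from 1.79 to 1.91 for DUSP5, from 0.66 to 0.77 for DUSP10, from -1.09 to -0.90 for DUSP4, from -1.11 to -0.91 for DUSP6 and from -0.0885 to 0.0647 for DUSP1. DUSP1 turned positive with the filter of 1 count in any library (0.0026), with thinning (0.0194), without the shallowest GST library (0.0647), and in the 4 libraries that share a column number with (0.0904) and without (0.0899) a block. DUSP16 turned to -0.0890 with library totals. The cause was not tested.

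The count of genes at least 2-fold lower, 2 as reported, was 1 with DESeq2's size factors, DESeq2's test, voom, the filter of 1 count and both fits of 4 libraries, and 0 to 2 with 1 library left out. Over all genes, library totals gave 927 higher and 3788 lower, and the filter of 1 count gave 2608 higher of 31617 tested. With 1 library left out, 1051 to 1531 genes were higher and 1179 to 1818 lower, and 8 to 18 pathway list genes were lower. With library totals 42 pathway list genes were lower. On TMM-scaled totals the mean RPKM was 3.64 for DUSP1, 36.9 for DUSP2 and 3.35 for DUSP10 with GST-PTR1, 10.2 for DUSP2 with GST, and 211 for the sum of the 7 phosphatase genes with GST-PTR1.

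No paired analysis of all 6 libraries was made, since the replicate numbers of the samples do not match the columns. In the 4 libraries that share a column number, deviations from the treatment means correlated at r = -0.03 across genes, and a replicate block by that number gave 1603 higher and 1715 lower genes against 1790 and 1848 without it. It changed the call of none of the 10 genes, and of the list genes named here DUSP7, SOS2 and MAPK6 were called without the block and not with it. Depth limits SPRY1, with 33 to 51 counts, and SPRY2, with 0.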
